A study of Mus musculus with 6 samples.

Results

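The mitochondrial ribosomal protein genes are the nuclear genes for the protein part of the ribosome inside mitochondria. They were taken by name: 78 protein-coding genes of the 55298 in the deposited table carry a symbol that starts with Mrpl or Mrps followed by a digit. Of these, 77 had values above 0 and all 77 passed the filter on low values (a mean of at least 3 on the deposited scale), 48 named for the large subunit and 29 for the small subunit, among 18161 genes tested. Mrpl53 (ENSMUSG00000030037.9, chromosome 6, 83109040 to 83109939, plus strand) was listed at 0 in all 6 samples and could not be tested. It lies inside the overlapping gene model Gm42688 on the same strand, whose exons cover 695 of the 790 exon bases of Mrpl53 (88.0%). Reads shared by overlapping genes can go uncounted, and whether this set the 0 was not tested. Another 5 genes with such names are annotated as pseudogenes and were left out.

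RNA was sequenced from brain cells captured with magnetic beads carrying an antibody against O4, a sulfatide antigen of the oligodendrocyte lineage, and was taken without culture. The donors were mice of the strain labelled c56Bl/6j, with no transgene or mutation named. The 3 EAE samples came from mice immunised with the MOG 35-55 peptide, which induces experimental autoimmune encephalomyelitis, and each pooled RNA of 2 mice at the peak of disease. The 3 OVA samples came from mice given ovalbumin as the control: replicates 1 and 3 held 1 mouse each and replicate 2 pooled 2 mice. Age and sex are not in the labels. Values are regularised logarithms (rlog) of read counts on a log2 scale, so a difference of 1 is a 2-fold difference. The depth behind them is unknown.

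Mitochondria keep their own ribosomes, which make only the hydrophobic core subunits of the respiratory chain and ATP synthase that mitochondrial DNA encodes. The large subunit holds the peptidyl transferase centre and the exit tunnel, and the small subunit binds the messenger and decodes it. Part of their proteins have a bacterial counterpart, and the others were added during the evolution of mitochondria. Every one is encoded in the nucleus, made in the cytosol and imported, so the nuclear and the mitochondrial genome both take part in respiration. Oligodendrocytes are known for a high demand for energy and lipid precursors during myelination, and mitochondrial injury is a recognised feature of inflammatory demyelination.

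Marker transcripts of several cell types differed between the groups. The 9 oligodendrocyte markers had sample means of 15.24 to 15.95, above those of every other cell type list, and limma called 0 of the 9, with 1 higher at an unadjusted p under 0.05. Of the markers of other cells, 4 of 6 T cell genes and 2 of 6 monocyte and macrophage genes rose, 2 of 6 microglia genes fell, and 3 astrocyte genes fell while Gfap rose. No marker was at 0 in every sample. The mean over the monocyte and macrophage genes was 9.84 to 10.64 in EAE and 7.45 to 9.14 in OVA, and that over the T cell genes was 5.88 to 6.05 and 5.22 to 5.43. OVA replicate 3 stood apart, with neutrophil genes at a mean of 10.97 against 7.32 and 7.70 in the other OVA samples, and it was the lowest sample for all 9 oligodendrocyte markers. OVA replicate 1 had the highest astrocyte mean (13.00) and microglia mean (12.09). Xist was at 13.50 to 14.16 in EAE and at 7.39 to 7.63 in OVA, and the Y-linked Ddx3y was at 9.44 to 10.18 in EAE and 11.29 to 11.46 in OVA, so transcripts of the sex chromosomes moved with the group. None of the members lies on the X or Y chromosome. The part of cell makeup and of sex in the members' values was not tested, and in bulk samples fewer cells of a type and less RNA per cell cannot be told apart.

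In these preparations the mitochondrial ribosomal protein genes differed little between EAE and OVA, and none passed the test. Limma called 0 of 77 higher and 0 of 77 lower in EAE, where 1.72% of all tested genes were called higher and 0.666% lower. At an unadjusted p under 0.05, limma had 4 members higher (Mrps12, Mrpl54, Mrpl52 and Mrpl38; 5.19%) and 0 lower, where all tested genes had 9.17% higher and 7.15% lower. The smallest adjusted p was 0.141, for Mrps12. The median difference, EAE minus OVA, was 0.06 over the members on the log2 scale, against -0.0024 over all tested genes. It was 0.06 for the 48 large-subunit genes and 0.07 for the 29 small-subunit genes. The difference was above 0 for 56 of the 77 members (72.7%), against 49.3% of all tested genes.

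The direction held with samples centred on all tested genes and turned with samples centred on the respiratory chain subunits. The size in the large subunit depended on 1 sample. Without OVA replicate 1 the median difference of the members was 0.01 and 43 of 77 stood above 0. The median of the large subunit was then 0.0048, and that of the small subunit 0.06. When each sample was centred on all tested genes, the members' median was 0.0388 and 51 of 77 stood above 0. When each sample was centred on the nuclear genes for respiratory chain subunits, the members' median turned to -0.07. That of all tested genes moved to -0.13. In that setting 15 of 77 members stood above 0. Without OVA replicate 3, limma again called 0 higher and 0 lower, where 4.68% and 1.91% of all tested genes were called. At an unadjusted p under 0.05 it had 6 members higher (7.79%) and 1 lower (1.30%), where 13.3% of all tested genes were higher and 1821 of 18161 lower. The members' median difference was then 0.07, with 58 of 77 above 0. With array weights, whose estimate did not converge, limma called 8 members higher and 2 lower, among 2858 and 2233 of all tested genes.

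The intervals give, for each gene on the rlog scale, the differences that the spread between samples left possible. They do not cover the differences in cell markers and sex chromosome transcripts between the groups. All 77 differences lay between -0.19 and 0.35, and the largest corresponds to 1.27-fold. The 95% intervals from limma stayed between -0.39 and 0.65. For 76 of the 77 the whole interval lay inside a 1.5-fold difference in either direction (0.585 on the log2 scale), Mrpl52 being the exception. The same held for 76.8% of the 9023 tested protein-coding genes with levels in the members' range. In that comparison set, 14.7% of the genes (1324) differed by more than the largest difference of any member. That limit was set by the members themselves, so none of them could lie beyond it. The rlog pulls values towards each gene's mean, so differences of weakly expressed genes are understated. The members had means of 6.50 to 10.84, and how far the rlog shrank their differences was not tested.

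**Figure D1:**
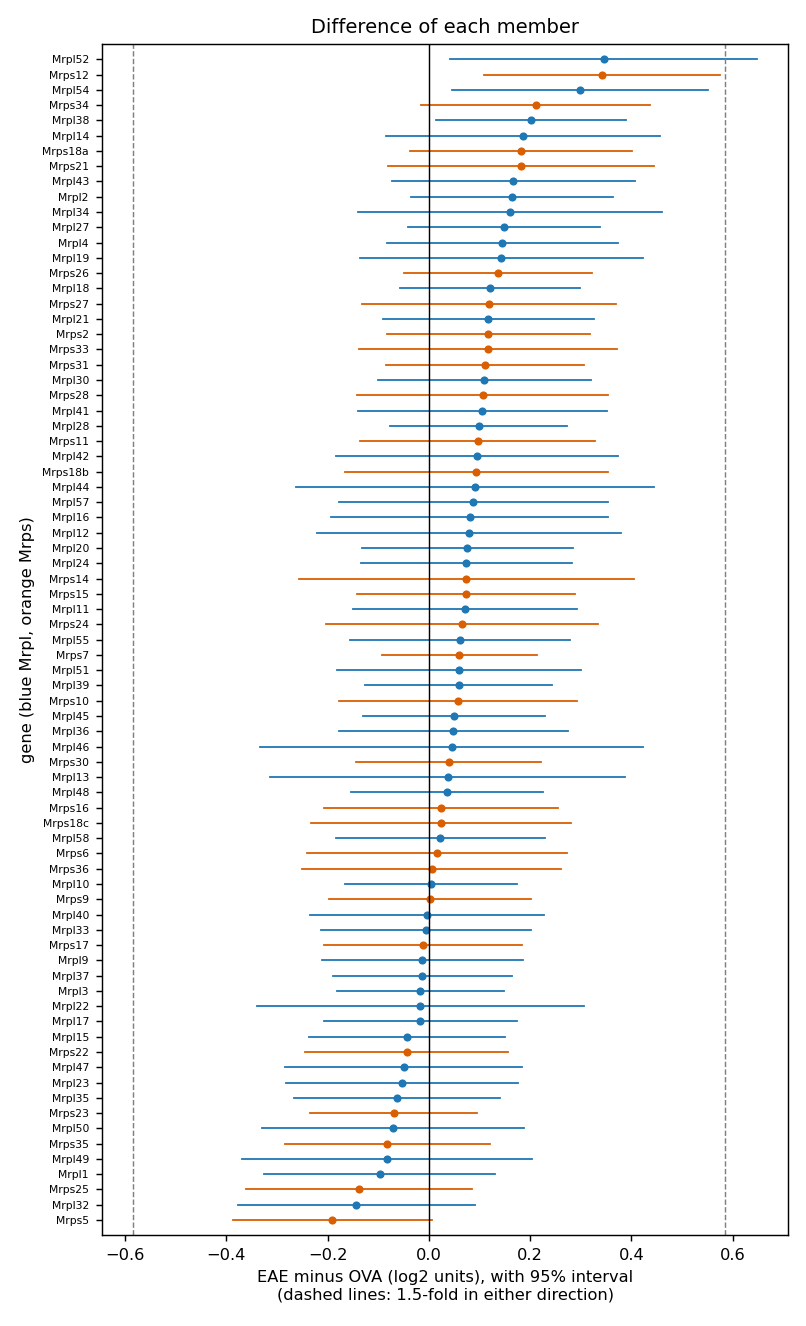
Each point is the difference of 1 tested gene between EAE and OVA in log2 units (x axis) with its 95% limma interval, genes ordered by difference and coloured by subunit name, and dashed lines at 1.5-fold. Differences run from -0.19 (Mrps5) to 0.35 (Mrpl52), and only the interval of Mrpl52 crosses a dashed line.

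Mrps12 had the smallest p of the members. It encodes a protein of the decoding centre of the small subunit, with a bacterial counterpart (ENSMUSG00000045948.8, chromosome 7, 28739641 to 28741820, minus strand). Its rlog values were 8.74, 8.47 and 8.55 in EAE replicates 1 to 3 and 8.28, 8.25 and 8.20 in OVA replicates 1 to 3. Every EAE value lay above every OVA value. The group values were 8.59 ± 0.14 and 8.25 ± 0.04 (SD, n = 3), a difference of 0.34 ± 0.10 (SE, limma adjusted p = 0.141).

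Mrpl52 and Mrpl54 encode large-subunit proteins particular to mitochondria. Mrpl52 (ENSMUSG00000010406.12, chromosome 14, 54426909 to 54429756, plus strand) stood at 8.48, 8.42 and 8.40 in EAE and at 7.81, 8.22 and 8.22 in OVA. The groups did not overlap, but OVA replicate 1 lay much further down than the other OVA samples. Its difference was 0.35 ± 0.13 (SE, limma adjusted p = 0.242) and was 0.21 without OVA replicate 1. Mrpl54 (ENSMUSG00000034932.4, chromosome 10, 81264713 to 81266934, minus strand) stood at 8.50, 8.27 and 8.37 in EAE and at 7.93, 8.16 and 8.14 in OVA. Again the groups were apart and OVA replicate 1 was the lowest. The difference was 0.30 ± 0.11 (SE, limma adjusted p = 0.226).

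Mrpl38, another large-subunit protein particular to mitochondria (ENSMUSG00000020775.13, chromosome 11, 116131817 to 116138868, minus strand), stood at 9.52, 9.40 and 9.38 in EAE and at 9.30, 9.19 and 9.21 in OVA. Mrps34, a small-subunit protein particular to mitochondria (ENSMUSG00000038880.13, chromosome 17, 24895116 to 24897502, plus strand), stood at 8.80, 8.64 and 8.64 in EAE and at 8.60, 8.41 and 8.44 in OVA. For both the highest OVA value, in replicate 1, lay below the lowest EAE value. Differences were 0.20 ± 0.08 for Mrpl38 (SE, limma adjusted p = 0.272) and 0.21 ± 0.10 for Mrps34 (SE, limma adjusted p = 0.341). Next within the large subunit by name were Mrpl14 at 0.19 and Mrpl43 at 0.17. Within the small subunit by name they were Mrps18a and Mrps21 at 0.18 and Mrps26 at 0.14. Without OVA replicate 1, Mrpl14 was at 0.11, Mrpl43 at 0.08 and Mrps21 at 0.08. Without EAE replicate 1, Mrpl14 was at 0.12 and Mrps18a at 0.12, and without OVA replicate 3, Mrps21 was at 0.28.

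In the other direction Mrps5 came first. It encodes a small-subunit protein with a bacterial counterpart near the messenger entry side (ENSMUSG00000027374.12, chromosome 2, 127587222 to 127606829, plus strand). Its rlog values were 9.72, 9.65 and 9.61 in EAE and 9.91, 9.92 and 9.72 in OVA. The groups touched only at EAE replicate 1 and OVA replicate 3, both at 9.72. The difference was -0.19 ± 0.08 (SE, limma adjusted p = 0.324), and -0.26 with a limma adjusted p of 0.0930 without OVA replicate 3.

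Mrpl32 encodes a large-subunit protein with a bacterial counterpart that is cut by the mitochondrial m-AAA protease before it joins the ribosome (ENSMUSG00000015672.4, chromosome 13, 14608184 to 14613165, minus strand). It stood at 8.32, 8.26 and 8.29 in EAE and at 8.48, 8.28 and 8.54 in OVA, with OVA replicate 2 inside the EAE range. The difference was -0.14 ± 0.10 (SE, limma adjusted p = 0.523), at -0.22 without OVA replicate 2 and -0.09 without OVA replicate 3. Mrps25, a small-subunit protein particular to mitochondria, stood at 9.29, 9.28 and 9.34 in EAE and at 9.39, 9.61 and 9.32 in OVA, which overlap. Its difference was -0.14, and -0.05 without OVA replicate 2. The other members with the most negative differences were Mrpl1, Mrpl49, Mrpl50 and Mrpl35 of the large subunit, at -0.10 to -0.06, and Mrps35, Mrps23 and Mrps22 of the small subunit, at -0.08 to -0.04.

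**Figure D2:**
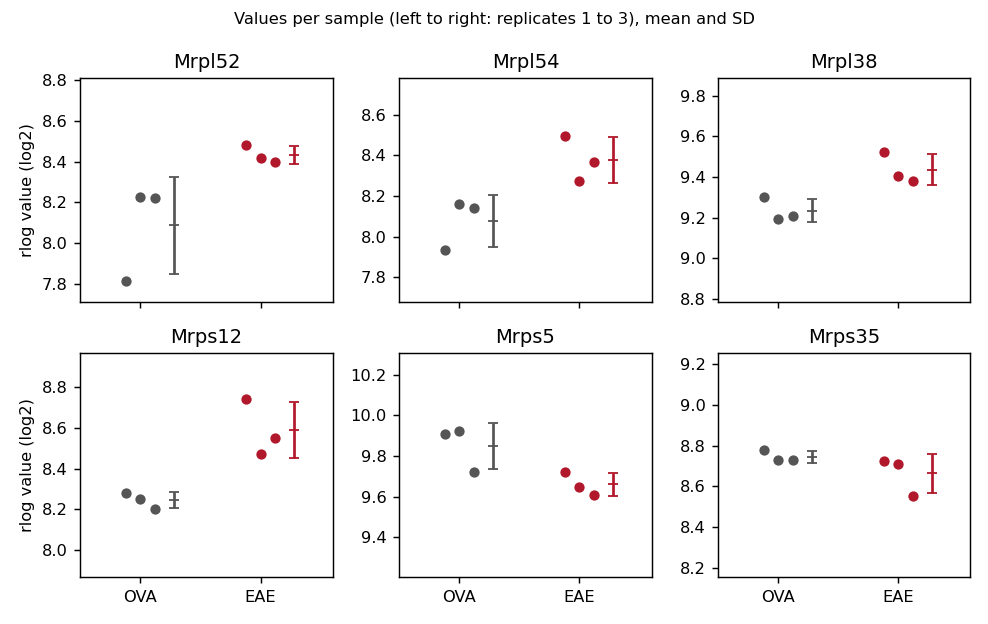
Points are rlog values (y axis, log2 units) of 6 member genes in the 3 OVA and 3 EAE samples, replicates 1 to 3 from left to right, with bars for mean and SD; each panel has its own y range. Mrps12 runs from 8.20 to 8.28 in OVA and from 8.47 to 8.74 in EAE, and for Mrpl52 the OVA spread comes from replicate 1 at 7.81.

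Over all members, the EAE values lay entirely above the OVA values for 14 of 77 and entirely below for 1. The corresponding shares of all tested genes were 12.1% above and 10.8% below. The 14 were Mrpl52, Mrps12, Mrpl54, Mrps34, Mrpl38, Mrps18a, Mrpl2, Mrpl27, Mrps26, Mrpl18, Mrpl21, Mrpl30, Mrpl28 and Mrps7. The 1 below was Mrps35, at 8.73, 8.71 and 8.56 in EAE and 8.78, 8.73 and 8.73 in OVA, a separation smaller than the last digit printed. The smallest difference among the 14 was that of Mrps7, a protein of the small-subunit head, which stood at 9.88 ± 0.02 in EAE and 9.82 ± 0.01 in OVA (SD, n = 3).

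Promoters were read for the members because the genes share a small set of known regulators. RefSeq windows on GRCm38.p6, from 250 bases before to 50 bases after the start, matched 69 of the 78 genes by symbol, in 75 windows of 300 bases. They were searched on both strands for the letters GCGCATGCG of nuclear respiratory factor NRF1, CCGGAAG of the ETS family, to which the GA-binding protein belongs, and AAGATGGC of YY1. Matches to different motifs overlapped 0 times in the members' windows. Shown are 3 windows that carry the motifs and belong to genes at opposite ends of the range of differences: Mrps12 (chr7:28741772-28742071, minus strand), Mrpl52 (chr14:54426659-54426958, plus strand) and Mrpl32 (chr13:14612988-14613287, minus strand). Each runs 5′ to 3′ on the gene's strand, and capitals mark the motif matches, which read as the reverse complement where they lie on the opposite strand.
Mrps12: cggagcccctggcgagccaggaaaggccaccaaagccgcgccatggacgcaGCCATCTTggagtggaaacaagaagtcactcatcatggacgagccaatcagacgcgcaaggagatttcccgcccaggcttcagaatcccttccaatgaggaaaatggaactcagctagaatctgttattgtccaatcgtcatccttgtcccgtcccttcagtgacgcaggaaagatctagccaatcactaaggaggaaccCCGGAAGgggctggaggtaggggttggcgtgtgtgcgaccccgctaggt
Mrpl52: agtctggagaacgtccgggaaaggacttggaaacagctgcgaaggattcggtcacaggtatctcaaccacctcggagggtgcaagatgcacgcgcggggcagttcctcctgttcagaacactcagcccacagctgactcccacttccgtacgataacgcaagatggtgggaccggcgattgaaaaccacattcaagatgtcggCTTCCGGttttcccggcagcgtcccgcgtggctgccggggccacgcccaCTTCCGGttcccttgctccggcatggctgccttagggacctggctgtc
Mrpl32: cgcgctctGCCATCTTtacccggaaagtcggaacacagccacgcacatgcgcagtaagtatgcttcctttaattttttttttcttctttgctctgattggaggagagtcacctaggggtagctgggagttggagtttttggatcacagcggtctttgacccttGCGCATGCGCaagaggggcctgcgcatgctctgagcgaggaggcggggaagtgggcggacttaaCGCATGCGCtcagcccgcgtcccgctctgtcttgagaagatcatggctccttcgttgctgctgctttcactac
The Mrps12 window holds a YY1 match at position 52, counted from 1 at its 5′ end, and an ETS match at position 252, next to the start. Mrpl52 has ETS matches at 204 and 253. Mrpl32 has NRF1 matches at 164, 165 and 228, the first pair on opposite strands of the same letters, and a YY1 match at 9.

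The motifs were more common in these promoters than in others of the same length. ETS letters were in the windows of 26 of 69 member genes (37.7%), against 17.5% of 11883 tested protein-coding genes and 9.93% of all 27025 genes in the table. YY1 letters were in 12 (17.4%), against 4.60% and 3.19%, and NRF1 letters in 7 (10.1%), against 3.61% and 1.95%. At least 1 of the 3 was in 38 (55.1%), against 23.7% and 14.1%. Of 31 ETS matches in the members, 26 (83.9%) began in the last 110 bases of the window, from position 191 on, against 62.0% of 2753 matches in the tested protein-coding genes. For YY1 it was 9 of 12 matches against 61.7%, and for NRF1 5 of 11 (45.5%) against 55.7%. In Mrpl9, Mrpl32 and Mrpl39, overlapping NRF1 letters were counted once on each strand, so such a pair of matches is a single site. A match is a run of letters and not a shown binding site. The median difference between EAE and OVA was 0.09 with ETS letters and 0.06 without, 0.06 with YY1 letters and 0.06 without, and -0.01 for the 7 genes with NRF1 letters and 0.07 for those without. Mrpl53, which holds ETS letters only, has no difference and enters none of these medians.

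Within the families, levels were compared per exon length, as the mean rlog value minus the log2 of the summed exon length in kb. On that scale members ran from 4.69 (Mrpl23) to 9.67 (Mrpl24). Highest in the large subunit by name were Mrpl24, Mrpl10 (9.37) and Mrpl41 (9.19). Mrpl24 is an assembly protein with a bacterial counterpart, and Mrpl10 anchors the stalk that recruits translation factors. In the small subunit Mrps21 (9.45), Mrps23 (8.90) and Mrps7 (8.80) were highest. The lowest of the small subunit by name were Mrps35 (5.60), Mrps30 (6.01) and Mrps22 (6.14). In the large subunit by name Mrpl23, which sits at the exit of the tunnel, was followed by Mrpl32 (6.05) and Mrpl15 (6.09). Summed exons include those of rarely used isoforms, so the scale understates genes with long alternative exons. The highest member, Mrpl24, differed by 0.07, at 10.88 ± 0.08 in EAE and 10.80 ± 0.13 in OVA (SD, n = 3). The lowest, Mrpl23, differed by -0.05. Others near the ends differed more, with Mrps21 at 0.18 and Mrpl32 at -0.14.

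By structure, 3 members do not belong where their names put them. Mrps30 and Mrps18a are proteins of the large subunit. Mrps36 is known as a subunit of the 2-oxoglutarate dehydrogenase complex of the citric acid cycle. Mrps30 stood at 8.75, 8.80 and 8.76 in EAE and 8.69, 8.76 and 8.74 in OVA. Mrps18a stood at 9.21, 8.96 and 9.07 in EAE and 8.83, 8.94 and 8.92 in OVA, with a difference of 0.18 ± 0.09 (SE, limma adjusted p = 0.390). Mrps36 was the least abundant member before correction for length, at 6.50 ± 0.09 in EAE and 6.49 ± 0.14 in OVA (SD, n = 3). With these moved, the median difference was 0.06 over 50 large-subunit genes and 0.07 over 26 small-subunit genes.

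Proteins of bacterial ancestry and those particular to mitochondria had similar medians. The medians were 0.07 over 30 large-subunit genes with a bacterial counterpart and 0.06 over 20 large-subunit genes without one. In the small subunit they were 0.06 over 16 and 0.10 over 10. At an unadjusted p under 0.05, limma had 3 of the 20 large-subunit genes particular to mitochondria higher (Mrpl52, Mrpl54 and Mrpl38). It had 1 of the 16 small-subunit genes with a bacterial counterpart higher (Mrps12), and 0 in each remaining group of these 4. Of all tested genes 9.17% were higher at that threshold, and whether the groups differ was not tested. Mitoribosomal proteins with other symbols (Dap3, Ptcd3, Chchd1, Aurkaip1 and Gadd45gip1) had a median of 0.07, and limma called 0 of 5, with 0 at an unadjusted p under 0.05. Gadd45gip1, a large-subunit protein, differed by 0.17 (limma adjusted p = 0.461), and Dap3, a GTP-binding small-subunit protein, by -0.10 (limma adjusted p = 0.498).

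Samples varied more in OVA than in EAE. Each EAE sample pooled 2 mice, while OVA replicates 1 and 3 held 1 mouse each, and the part of pooling was not tested. The median SD over the members was 0.12 in OVA and 0.0627 in EAE, against 0.150 and 0.0808 in the tested protein-coding genes of the same range of levels. The OVA range was wider than the EAE range for 57 of 77 members. The members' mean was 8.93, 8.90 and 8.87 in EAE replicates 1 to 3 and 8.77, 8.88 and 8.88 in OVA replicates 1 to 3. OVA replicate 1, a single mouse, was the lowest of all 6 samples for 44 members and the lowest OVA sample for 46, where 40.3% of the genes in that range of levels had it lowest in OVA. Its median deviation from each gene's mean was -0.12 for the large subunit and -0.06 for the small subunit.

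Mrpl44, Mrpl46 and Mrps14 had the widest OVA ranges. Mrpl44, a large-subunit protein related to ribonuclease III, stood at 7.76, 8.07 and 8.36 in OVA and at 8.17, 8.11 and 8.19 in EAE. Mrps14 behaved alike, at 8.41, 8.55 and 8.95 in OVA and 8.75, 8.68 and 8.70 in EAE. Mrpl46 had OVA replicate 1 at 7.61 and the others at 8.16 and 8.12, with EAE values of 7.89 to 8.13. For each of the 3 the EAE samples lay inside the OVA range.

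**Figure D3:**
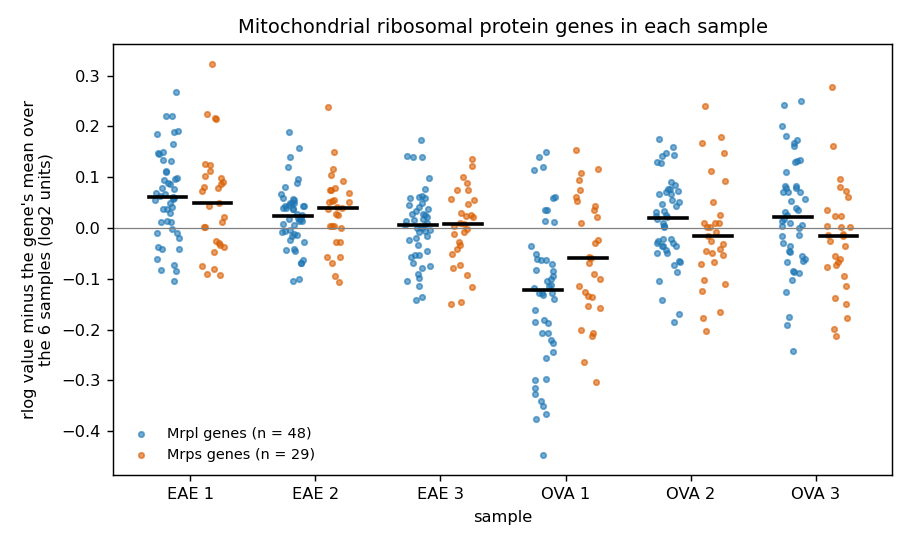
Each point is 1 gene in 1 sample, as its rlog value minus the gene's mean over the 6 samples (y axis, log2 units), coloured by subunit name, with black bars for medians. The medians of OVA replicate 1 are the lowest, at -0.12 for the large and -0.06 for the small subunit.

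Other genes of mitochondrial translation, and those listed under mitochondrial DNA transcription and upkeep, had medians below 0. In each list limma called 0, with 0 at an unadjusted p under 0.05. OVA replicate 1 had the highest mean of the 6 samples in each list. It was at 9.10 for translation factors (8.99 to 9.02 in the others) and 9.28 for tRNA synthetases (9.17 to 9.21 in the others). How far the medians rest on this sample was not tested. The median was -0.02 over 12 translation factors, of which 3 stood above 0. Mtrf1l, a release factor, differed by -0.20 and Mtif2, the initiation factor, by -0.18 (limma adjusted p = 0.412 for both). It was -0.03 over 17 mitochondrial aminoacyl-tRNA synthetases, with 5 above 0, where Mars2 for methionine differed by -0.19 (limma adjusted p = 0.364) and Cars2 for cysteine by 0.18 (limma adjusted p = 0.345). It was -0.04 over 19 assembly factors, among them Gtpbp10 at -0.15 and Fastkd2 at -0.16 (limma adjusted p = 0.460 and 0.490). It was -0.06 over 13 genes listed under mitochondrial DNA transcription and upkeep. Among them Tfb2m and Tfb1m differed by -0.22 and -0.16 (limma adjusted p = 0.375 and 0.508). Mitochondrially encoded transcripts were not analysed here.

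Of 12 regulators of mitochondrial gene expression, 1 passed the test. The list's median difference was -0.02, with 6 above 0 and 6 below, and at an unadjusted p under 0.05 limma had 2 higher and 2 lower. Ppargc1a, the coactivator PGC-1alpha that promotes mitochondrial biogenesis (ENSMUSG00000029167.13, chromosome 5, 51454250 to 51567726), stood at 9.01, 9.02 and 9.09 in EAE and at 9.61, 9.37 and 9.54 in OVA. The groups were well apart. It fell by 0.47 ± 0.09 (SE, limma adjusted p = 0.0439), to 0.723 of the OVA level. The adjusted p was 0.191, 0.189 and 0.107 without EAE replicate 1, 2 or 3, 0.0994 and 0.0809 without OVA replicate 1 or 2, and 0.0376 without OVA replicate 3. It was 0.0617 with no filter on low values and 0.0602 with samples centred on the respiratory chain subunits. Gabpa, the DNA-binding subunit of the GA-binding protein, had every EAE value below every OVA value and differed by -0.20 (limma adjusted p = 0.247). Ppargc1b, a related coactivator, and Myc, a growth regulator, had every EAE value above every OVA value and differed by 0.26 and 0.25 (limma adjusted p = 0.230 and 0.276). Nrf1 differed by -0.13 (limma adjusted p = 0.519) and Yy1 by -0.08 (limma adjusted p = 0.604).

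The nuclear partners of the mitochondrial translation products and the ribosome of the cytosol were set beside the members. The 74 nuclear genes for respiratory chain subunits had a median difference of 0.06 with 56 above 0, close to the members' 0.06 and 56 of 77. Limma called 0 of the 74, with 7 higher at an unadjusted p under 0.05, and without OVA replicate 3 it called 2 higher (Cox8a and Ndufb7). The 82 tested genes for cytosolic ribosomal proteins had a median of 0.25, with 77 above 0. Limma called 0 of the 82, with 24 higher at an unadjusted p under 0.05, and without OVA replicate 3 it called 20 higher at a median of 0.35. Over all tested genes, 9.17% were higher at an unadjusted p under 0.05, and 4.68% were called higher without OVA replicate 3. OVA replicate 1 was the lowest of the 6 samples for 76 of these 82 genes and for 55 of the 74 respiratory chain genes. Whether the lists differ from the members was not tested.

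**Figure D4:**
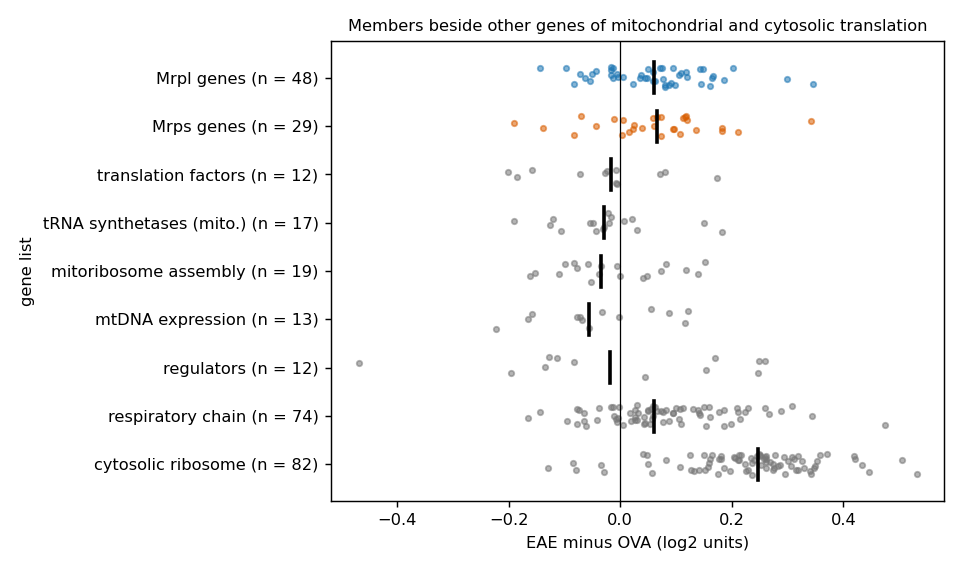
Each point is the difference of 1 gene between EAE and OVA in log2 units (x axis) and each black bar the median of its list (y axis, with the number of genes tested). The medians of the Mrpl and Mrps genes lie at 0.06 and 0.07, those of the cytosolic ribosomal proteins at 0.25 and of the translation factors at -0.02.

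Members with short transcript models had the larger differences. The 39 genes with a summed exon length up to the median of 2533 bases had a median difference of 0.09 with 34 above 0, and the 38 longer ones had 0.03 with 22 above 0. Spearman's correlation across the 77 genes was -0.51. These points share the same 6 libraries, and genes are not independent replicates. Over all 15216 tested protein-coding genes the correlation was -0.21, and those up to the same length had a median of 0.06 (3204 genes) against -0.01 for the longer ones (12012 genes). Over the 74 nuclear genes for respiratory chain subunits it was -0.42, with medians of 0.11 for their shorter and 0.03 for their longer genes. Over the 82 genes for cytosolic ribosomal proteins it was only -0.11, with medians of 0.26 and 0.22. Over the members the coefficient was -0.31 without OVA replicate 1 and -0.46 to -0.53 without each of the others. Among the OVA samples alone, the correlation of exon length with the difference between replicate 1 and the mean of the other replicates was 0.28 over the members, and -0.30 for replicate 3. RNA quality and fragment length are not in the labels, and their part in this relation was not tested.

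**Figure D5:**
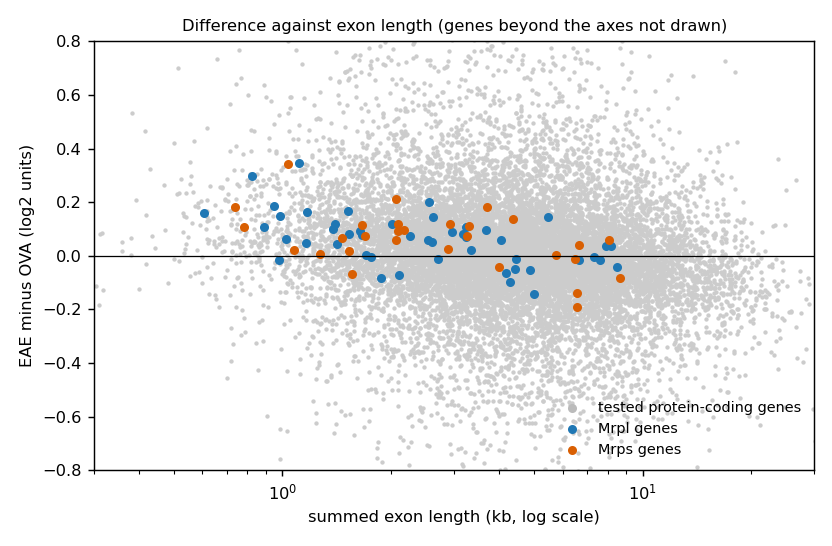
Difference between EAE and OVA (y axis, log2 units) against summed exon length (x axis, kb, log scale) for the tested protein-coding genes in grey and the members in blue (Mrpl) and orange (Mrps). The members' points slope downwards, with Spearman's correlation at -0.51, against -0.21 over all the genes and -0.42 over the respiratory chain subunit genes, which are not marked.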

How the data were processed

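The deposited table holds 1 log2 value per gene for each of the 6 samples. The name and the values of the table mark them as rlog values, which the authors computed from read counts. The library kit was TruSeq Stranded mRNA, per the labels. Build GRCm38 and the tools DESeq2 1.24.0, Subread 1.6.1, STAR 2.6.1c, cutadapt 1.18 and bcl2fastq 2.17 are credited to the submitters' processing notes. The rlog settings and the annotation release are not given in the sources used here. Symbols, positions and exon lengths are those of GENCODE on GRCm38.

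Genes with a mean of at least 3 were compared by limma 3.58.1 (R 4.3.3), with an intensity trend, two-sided, and Benjamini-Hochberg adjustment over all 18161 tested genes at a threshold of 0.05. The test was checked on simulated data first. Replicate numbers follow deposit order. The p-values measure the spread between samples of 1 or 2 mice, and a pool averages its mice.

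The members, lists and tests were chosen with earlier results of these data known. Named members are the 5 largest differences per direction and subunit, the 3 highest and lowest levels per exon length per subunit, the 3 widest OVA ranges, and genes whose name and complex differ. Other lists give their called genes or the 2 smallest p; Gabpa, Nrf1, Yy1, Ppargc1b and Myc were chosen after their values were seen. Alternatives covered the filter, the genes fitted, the empirical Bayes settings, sample weights, centring and each sample left out. Promoter windows come from RefSeq on GRCm38.p6, and 9 members had none.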

Additional observations from a re-analysis of the deposited data

How the results depend on the processing

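Across 14 alternatives, limma called 0 members in either direction in 13; with array weights it called 8 higher and 2 lower, among 2858 and 2233 of all tested genes, but the weights (8.85 for OVA replicate 2 against 0.22 for OVA replicate 3) came from an estimate that stopped before convergence. Centring on the tested genes left the median difference at 0.0388 over the members, 0.0375 over the large and 0.0422 over the small subunit. Centring on the respiratory chain subunits turned it to -0.07 over the members (-0.0662), -0.0675 over the large and -0.0628 over the small subunit. Over all tested genes it moved to -0.13. That setting subtracts each sample's median over the list, a different measure from the list's median gene difference of 0.06. Leaving out each sample in turn gave medians of 0.0117 to 0.0856 over the members, 0.0048 to 0.0896 over the large and 0.0534 to 0.0709 over the small subunit, the lowest over the members without OVA replicate 1. Of 434 values of the 31 named members, 7 passed the threshold, all with array weights, and 29 changed sign. Over all genes, 312 higher and 121 lower became 84 and 18, 24 and 1, and 286 and 45 without EAE replicates 1, 2 and 3, and 99 and 33, 30 and 7, and 850 and 346 without OVA replicates 1, 2 and 3. Depth is unknown, so no counting error can be given. No paired analysis was possible because the replicate numbers follow deposit order and the labels pair no samples.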

Other observations

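Members often have another gene that starts close by on the opposite strand. For 33 of the 78 (42.3%) a protein-coding gene on the opposite strand starts within 1000 bases, against 14.3% of the 15216 tested protein-coding genes. In some pairs the gene models overlap at their starts, such as Mrpl14 and Tmem63b, and in others they point away from each other. Of 29 tested partners that are not members, limma called 0, and 23 differed by more than 0, with a median difference of 0.05 and a range of -0.26 to 0.40 on the log2 scale. Of all tested genes, 49.3% had a difference above 0. Mrps12 and Sars2, the mitochondrial seryl-tRNA synthetase gene, start 172 bases apart and differed by 0.34 and 0.03. Mrpl54 and Apba3 start 26 bases apart and differed by 0.30 and 0.22. Mrpl36 shares its start region with Ndufs6, a subunit gene of respiratory complex I, at 29 bases, and they differed by 0.05 and 0.06. Mrpl49 and Fau, which encodes a ribosomal protein of the cytosol, start 59 bases apart and differed by -0.08 and 0.39. Mrpl46 and Mrps11, both members, start 412 bases apart and differed by 0.04 and 0.10.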
